A study of Mus musculus with 6 samples.

Results

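The 51 genes described here are interferon response genes: interferon signalling factors, sensors of foreign nucleic acid, antiviral effectors and interferon-induced GTPases. They were listed by gene symbol, with earlier results of these data known. All 51 were found among the 54532 gene identifiers of the count table. By role they comprise 4 signalling and transcription factors, 5 nucleic acid sensors, 5 members of the OAS family, 4 of the IFIT family, 5 proteins of the ISG15 system and the TRIM family, 3 PARP and DTX3L proteins, 12 other antiviral effectors, 2 PYHIN proteins, 6 guanylate-binding proteins and 5 immunity-related GTPases.

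RNA was sequenced from the epididymal white fat depot of mice. The 3 knockout libraries came from PD-1fl/fl Lyz2-Cre mice, in which the inhibitory receptor PD-1 (gene Pdcd1) is deleted in cells that express Cre recombinase from the Lyz2 locus, namely macrophages and other myeloid cells. The 3 control libraries came from PD-1fl/fl littermates, which carry the floxed gene without Cre. Mice of both groups had been fed a high-fat diet for 16 weeks. The sources used here give neither sex nor age. The whole tissue was sequenced, so T cells and other cells outside the reach of Lyz2-Cre contributed RNA too. In such bulk samples fewer cells of a type and less RNA per cell cannot be told apart. Whether the libraries of a group are separate animals is not stated in the labels, and if they are not, p-values describe technical spread only.

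Type I interferons are secreted by many cells that detect viral or misplaced nucleic acid, and bind a receptor made of IFNAR1 and IFNAR2. The receptor's kinases activate STAT proteins, and a complex of STAT proteins with IRF9 binds the interferon-stimulated response element (ISRE) in the promoters of antiviral genes. Type II interferon, or interferon gamma, comes mainly from T cells and NK cells, binds IFNGR1 and IFNGR2, and acts through STAT dimers on the gamma-activated site (GAS), including the promoter of the transcription factor IRF1. OAS, IFIT and MX genes are classical targets of type I interferon, while guanylate-binding proteins and immunity-related GTPases are classical targets of interferon gamma in macrophages. Fat tissue macrophages carry receptors for both signals.

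Library totals were 20108185 to 27225533 counts, and the 51 genes took 0.129% to 0.221% of them. Values below are in CPM, counts divided by a library size scaled with the trimmed mean of M-values (TMM), and replicate numbers follow accession order and pair nothing. Pdcd1 itself was counted 19, 19 and 5 times in the knockouts and 13, 0 and 0 times in the controls, replicates in order. These few counts do not check the genotype, since T cells in whole fat express Pdcd1 too and are not reached by Lyz2-Cre. Control replicate 2, titled HF_7690_eWAT, had a liver profile: its 7 hepatocyte markers summed to 196236 CPM, against 7.09 to 5420 CPM in the other libraries, and its 7 adipocyte markers to 763 CPM, against 12914 to 55575 CPM. Control replicate 3 was the next highest for hepatocyte markers, at 5420 CPM, and knockout replicate 2 had 942 CPM. Albumin (Alb) read 4.02, 654 and 57.6 CPM in the knockouts and 7.38, 148656 and 3879 CPM in the controls, the adipocyte hormone Adipoq 1205, 817 and 2614 and 3649, 11.2 and 1719 CPM, and the macrophage marker Adgre1 268, 379 and 49.3 and 28.9, 12.1 and 33.5 CPM. Every comparison is therefore given with all 6 libraries and with the 5 that remain without control replicate 2.

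Interferon acts on its target genes through short promoter sequences, which were searched for in the members. RefSeq promoters of GRCm38.p6, 250 bases before to 50 after an annotated start, were matched for 37 of the 51 genes. The ISRE core, GAAA, any 2 bases and GAAA again, on either strand, was found in 21 of these 37 genes (56.8%), against 3.99% of all 27025 genes with a promoter of that length. The palindromic GAS core TTCNNNGAA was found in 11 of 37 (29.7%), against 9.55% of all genes. The 2 motifs can lie next to or over each other, as in Bst2. An ISRE core was present in 3 of 3 matched sensors, 3 of 4 IFIT genes, 4 of 4 guanylate-binding proteins, 3 of 4 immunity-related GTPases, 2 of 4 OAS genes, 2 of 4 genes of the ISG15 system and TRIM family and 1 of 1 PYHIN genes. It was present in 2 of 8 other antiviral effectors, 1 of 4 signalling factors and 0 of 1 PARP and DTX3L genes. A match is a description of the letters and not a site shown to be bound.

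The following sequences are the 200 bases before the annotated start, 5′ to 3′ on the gene's strand, with matches to either core in capitals. Oas1a and Oasl2 are shown because they had the largest fold changes above 0 without control replicate 2, Ifit3 and Ifit3b because they are near copies, Bst2 for its level in control replicate 2, and Gbp2, Irgm2 and Irf1 for the interferon gamma classes.
Oas1a (chr5:120907526-120907725, minus strand): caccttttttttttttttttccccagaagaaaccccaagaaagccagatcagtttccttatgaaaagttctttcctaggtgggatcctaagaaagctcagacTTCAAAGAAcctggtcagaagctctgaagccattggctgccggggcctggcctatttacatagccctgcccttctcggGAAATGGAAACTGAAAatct
Oasl2 (chr5:114896734-114896933, plus strand): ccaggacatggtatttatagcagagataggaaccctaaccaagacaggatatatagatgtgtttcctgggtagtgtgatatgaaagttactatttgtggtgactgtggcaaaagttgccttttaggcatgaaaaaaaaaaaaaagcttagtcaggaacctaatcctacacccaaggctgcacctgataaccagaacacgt
Ifit3 (chr19:34583329-34583528, plus strand): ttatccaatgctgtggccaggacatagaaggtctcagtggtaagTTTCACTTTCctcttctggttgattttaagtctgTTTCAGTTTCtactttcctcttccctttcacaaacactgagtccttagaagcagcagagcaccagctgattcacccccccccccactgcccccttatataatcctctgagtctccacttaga
Ifit3b (chr19:34607757-34607956, plus strand): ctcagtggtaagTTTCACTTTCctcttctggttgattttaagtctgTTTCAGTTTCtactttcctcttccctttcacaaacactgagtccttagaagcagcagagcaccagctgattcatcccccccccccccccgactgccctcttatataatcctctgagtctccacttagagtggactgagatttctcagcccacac
Bst2 (chr8:71537473-71537672, minus strand): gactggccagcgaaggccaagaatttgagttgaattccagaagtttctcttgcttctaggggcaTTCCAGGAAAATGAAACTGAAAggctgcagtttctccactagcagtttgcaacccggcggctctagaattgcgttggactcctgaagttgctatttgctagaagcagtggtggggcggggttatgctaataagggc
Gbp2 (chr3:142620463-142620662, plus strand): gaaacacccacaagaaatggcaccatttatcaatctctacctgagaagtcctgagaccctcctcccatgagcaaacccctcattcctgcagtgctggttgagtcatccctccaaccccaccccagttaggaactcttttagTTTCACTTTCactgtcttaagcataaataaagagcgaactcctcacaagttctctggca
Irgm2 (chr11:58214777-58214976, plus strand): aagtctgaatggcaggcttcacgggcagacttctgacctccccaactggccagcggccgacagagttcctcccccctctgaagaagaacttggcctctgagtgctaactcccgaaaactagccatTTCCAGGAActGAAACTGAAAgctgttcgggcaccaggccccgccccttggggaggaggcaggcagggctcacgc
Irf1 (chr11:53769814-53770013, plus strand): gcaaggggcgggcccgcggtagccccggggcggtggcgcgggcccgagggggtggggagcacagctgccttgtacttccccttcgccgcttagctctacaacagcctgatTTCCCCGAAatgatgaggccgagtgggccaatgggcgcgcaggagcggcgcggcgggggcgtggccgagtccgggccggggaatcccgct

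Oas1a held overlapping ISRE cores 20 to 5 bases before its start and a GAS core 98 to 90 bases before it. Oasl2 held neither core in this window. Ifit3 and Ifit3b carried the same pair of ISRE cores, 156 to 147 and 122 to 113 bases before the start of Ifit3 and 188 to 179 and 154 to 145 before that of Ifit3b. Bst2 and Irgm2 held a GAS core beside or overlapping ISRE cores, Gbp2 an ISRE core alone, and the promoter of Irf1 shown a GAS core alone.

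**Figure D1:**
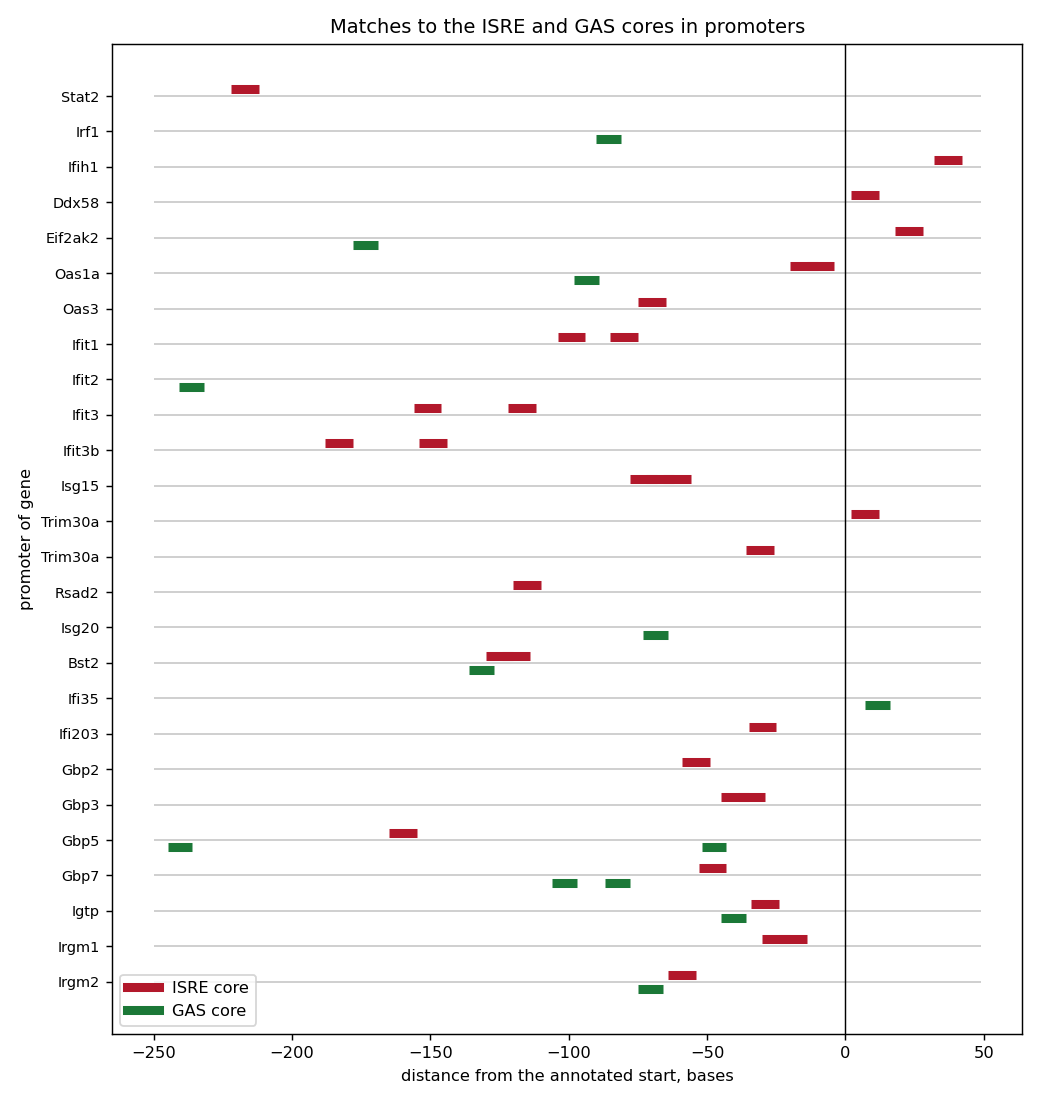
Matches to the ISRE core (red) and the GAS core (green) along the promoters of the members that held any, with the distance from the annotated start in bases on the x axis and 1 grey line per promoter (Trim30a has 2). Of the 37 members with a promoter, 21 held an ISRE core and 11 a GAS core, and promoters without a match are not drawn.

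Comparing fat of the knockouts with that of littermates asks how the level of these genes differs in obese fat when myeloid cells lack PD-1. Without control replicate 2, 43 of the 51 genes had a log2 fold change, knockout over control, above 0, with a median of 0.52. Over all 16729 genes tested the median was −0.037 and 47.1% were above 0. With all 6 libraries 28 of 51 members were above 0 and the median was 0.18, against −0.031 and 48.0% over all 15928 genes tested. OAS and IFIT genes had the highest medians without control replicate 2, at 1.58 and 0.97, whereas the PARP and DTX3L genes stood at −0.072 and the immunity-related GTPases at 0.12. With all 6 libraries the immunity-related GTPases had the lowest median of the 10 roles, −0.60, and all 5 were below 0.

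No member passed the edgeR quasi-likelihood test at an adjusted p under 0.05 over all genes, with 6 or with 5 libraries (0.0% of all genes passed in each). The smallest adjusted p among members was 0.560 with 6 libraries and 0.540 with 5. At an unadjusted p under 0.05 edgeR listed 5 members with 6 libraries (8.65% of all genes did), Zbp1, Oas1a, Oasl2 and Ifi203 higher in knockouts (4.38% of all genes) and Iigp1 lower (4.27%). With 5 libraries it listed 6 members (8.96% of all genes), Zbp1, Oas1a, Oasl2, Ifit3b, Bst2 and Rtp4, all higher in knockouts (5.46% of all genes), and none lower (3.5%). These counts amount to 9.80% and 11.8% of the members, near the shares over all genes in either direction (8.65% and 8.96%). As higher alone they were 7.84% and 11.8% of the members, against 4.38% and 5.46% of all genes, and rest on 4 and 6 members. Limma-voom called none of the 51 in either setting (0.0% of all genes), with 4 and 9 at an unadjusted p under 0.05 (6.17% and 7.69% of all genes).

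DESeq2 called none of the 51 with 6 libraries, where it called 3.3% of all genes. At an unadjusted p under 0.05 DESeq2 listed 6 members with 6 libraries, 11.8% of the members against 13.2% of all genes. With 5 libraries Zbp1, Oas1a, Oas3, Oasl2, Ifit3b, Trim30a, Bst2, Rtp4, Ifi203 and Gbp5 were under it as higher in knockouts. Isg20 was under it as lower, and the share over all genes was not computed. After adjustment, DESeq2 with 5 libraries called 2.81% of all genes, 2.13% as higher. Among members it called Oas1a alone, at a log2 fold change of 2.12 and an adjusted p of 0.00739. That call was lost without knockout replicate 1 (adjusted p 0.250), without knockout replicate 2 (0.0882) and without control replicate 1 (0.159). It was kept without knockout replicate 3 or control replicate 3. With control replicate 3 left out as well, so that control replicate 1 was the only control, DESeq2 called 16 members (6.08% of all genes), 15 of them as higher in knockouts. Without knockout replicate 3 it called 7 members, 6 as higher, while its calls over all genes went up to 8.8%. It called no member without knockout replicate 1 (0.447% of all genes), knockout replicate 2 (1.17%) or control replicate 1 (0.897%).

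**Figure D2:**
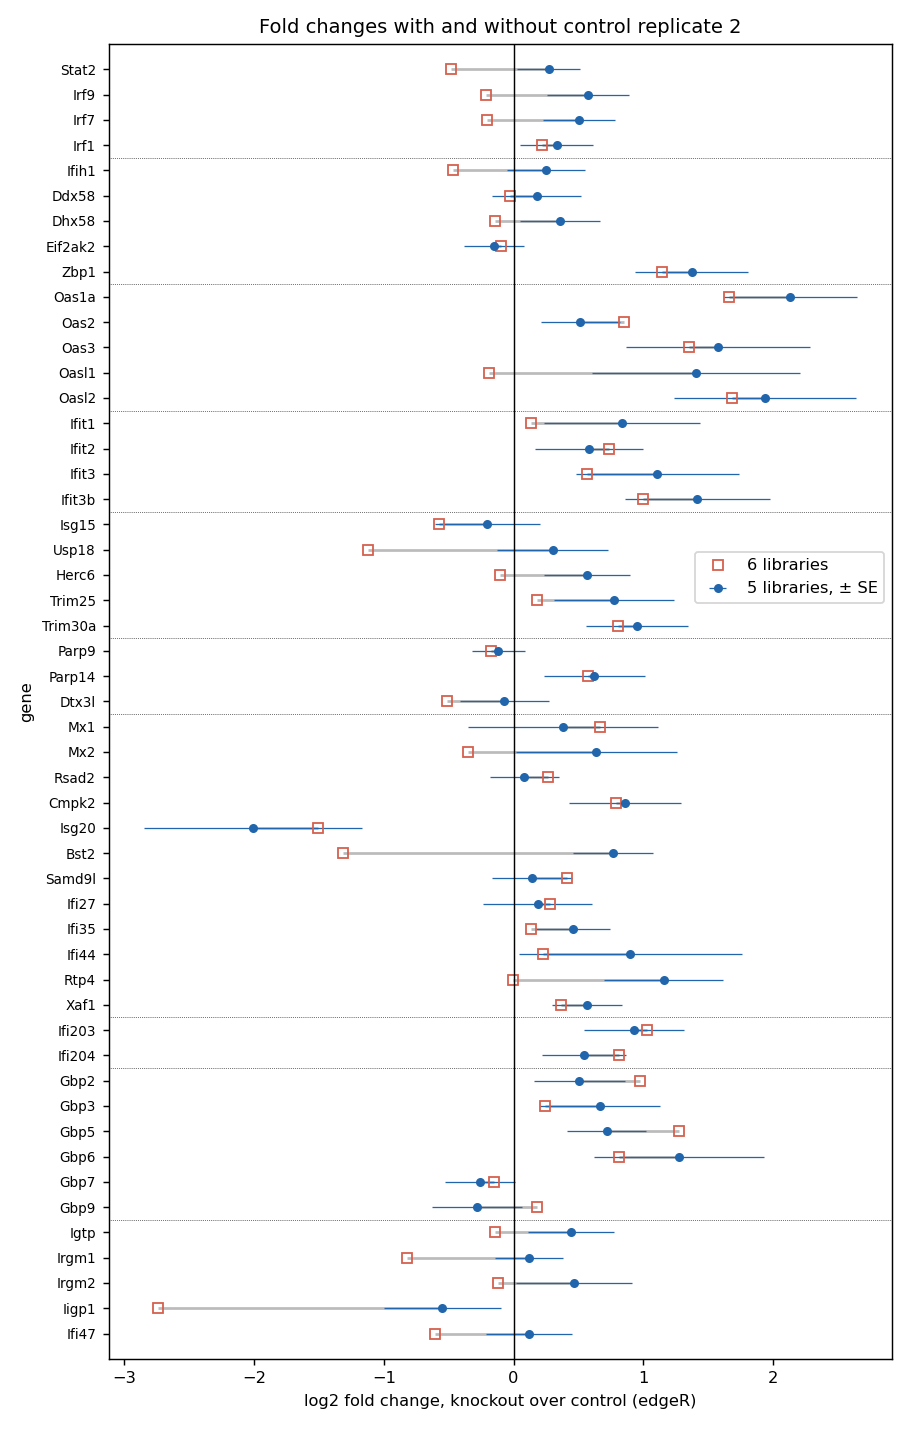
Log2 fold change of each member, knockout over control, by edgeR on the x axis, with open squares for all 6 libraries and filled circles (± SE) for the 5 without control replicate 2; dotted lines part the roles. Members below 0 numbered 23 with 6 libraries and 8 with 5, and 17 genes changed sign between the fits.

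The libraries did not split evenly by genotype. The mean of the 51 genes was 4.52, 4.31 and 4.09 log2(CPM + 1) in the 3 knockouts and 3.53, 4.41 and 4.11 in the 3 controls. Control replicate 1 was the low library and knockout replicate 1 the high one, while knockout replicate 3 and control replicate 3 were nearly level.
Of the 5 libraries without control replicate 2, control replicate 1 was the lowest for 35 of 51 members (29.0% of all genes) and knockout replicate 1 the highest for 29 (9.59% of all genes) and the lowest for none (13.9% of all genes). Knockout replicates 1 and 2 both stood above control replicates 1 and 3 for 32 members (25.9% of all genes).

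The titles of knockout replicate 3 and control replicate 3 both carry numbers beginning with 90, whereas the numbers of the other titles begin differently in each group. Within that pair, which allows no test, knockout replicate 3 was above control replicate 3 for 22 of 51 members (49.2% of all genes). The median log2 ratio of the pair was −0.031, against −0.012 over all genes. The sources used here do not say what the title numbers stand for.

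Values did not overlap between groups, with every knockout above every control, for 7 members with 6 libraries (9.54% of all genes) and for 14 with 5 (13.6% of all genes). The 7 were Zbp1, Oas1a, Oas2, Oasl2, Ifit3b, Ifi203 and Gbp5, and Ifit1, Ifit3, Herc6, Bst2, Rtp4, Xaf1 and Gbp6 joined them without control replicate 2. No member had every knockout below every control in either set (5.61% and 11.9% of all genes).

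**Figure D3:**
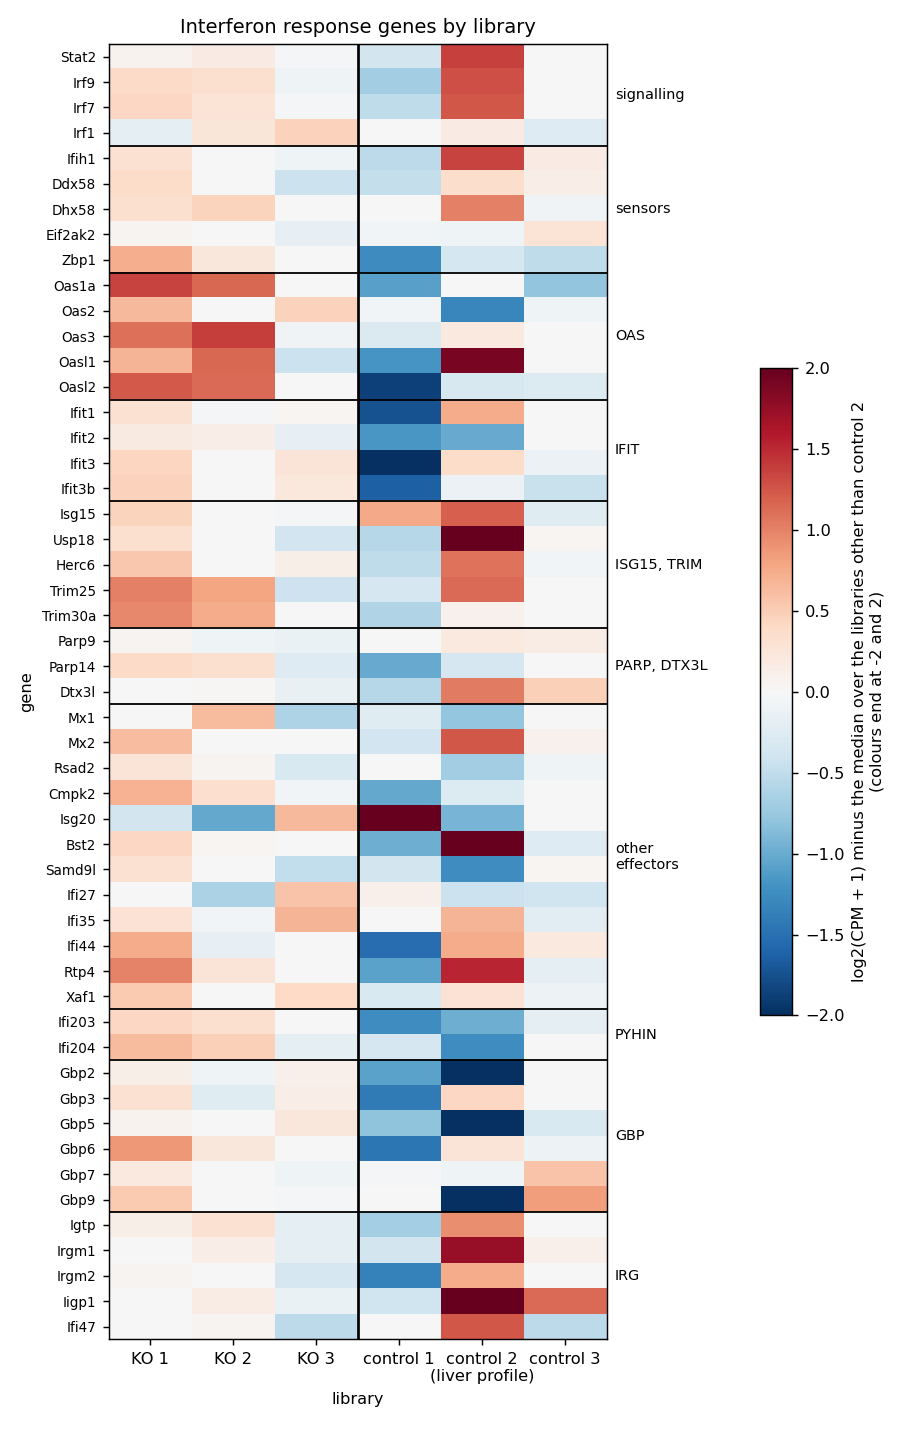
Expression of the 51 members in each library, as log2(CPM + 1) minus each gene's median over the 5 libraries without control replicate 2 (colours end at −2 and 2), with genes in rows by role and libraries in columns. Control replicate 1 was the lowest of the 5 libraries for 35 genes, and control replicate 2 was the highest of all 6 for 23.

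Most macrophage markers were higher in the knockouts. The 7 macrophage markers summed to 2896, 3690.0 and 645 CPM in the 3 knockouts and 526, 207 and 601 CPM in the 3 controls, and 6 of the 7 had every knockout above every control in both sets of libraries. Knockout replicates 1 and 2 were far above the rest, while knockout replicate 3 was close to control replicates 1 and 3. Lyz2, the locus from which Cre is expressed in the knockouts, is among the 7 markers and gave most of each sum. It read 1945, 2334 and 376 CPM in knockouts and 299 and 369 CPM in control replicates 1 and 3, and was lowest in control replicate 2. Whether the Cre construct altered the level of Lyz2 was not tested. The 5 T cell markers summed to 23.5, 19.2 and 16.6 CPM in knockouts and 4.53, 4.65 and 6.38 CPM in controls, with Cd8a at 0 counts in control replicate 2. Of the 5, 2 (3 without that library) had every knockout above every control. Trac gave most of each knockout sum, at 15.7, 9.89 and 13.3 CPM in knockouts and 1.35, 1.97 and 2.42 CPM in controls. Cd4 and Cd8a were lower in knockout replicate 3 than in control replicate 3. The 4 NK cell markers summed to 6.41, 7.12 and 5.01 CPM in knockouts and 4.64, 3.58 and 3.08 CPM in controls, with Ncr1 at 0 counts in control replicates 1 and 2. Plasmacytoid dendritic cells, strong producers of type I interferon, left little trace, with 3 markers summing to 0.556, 1.40 and 0.893 CPM in knockouts and 2.06, 1.61 and 1.80 CPM in controls. The part of these cell types in the members' values was not tested.

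Among the signalling and transcription factors, Stat2, Irf9 and Irf7 shared one profile. Stat2, the STAT partner in the ISRE-binding complex, read 22.03, 23.7 and 20.5 CPM in the knockouts and 15.95, 55.6 and 20.97 CPM in the controls. Irf9, the DNA-binding subunit of that complex, read 31.1, 29.7 and 22.2 CPM in knockouts and 14.1, 58.8 and 23.5 CPM in controls. Irf7, the factor that amplifies interferon alpha production, read 30.1, 27.04 and 21.97 CPM in knockouts and 15.3, 53.9 and 22.2 CPM in controls. In all 3 genes control replicate 2 was the highest library and control replicate 1 the lowest, so the groups overlapped. Their log2 fold changes were −0.48, −0.21 and −0.21 with 6 libraries and 0.27, 0.57 and 0.51 with 5. Irf1, the factor induced most directly by interferon gamma, read 27.1, 37.4 and 43.3 CPM in knockouts and 31.3, 35.3 and 26.1 CPM in controls, with knockout replicate 3 the highest and control replicate 3 the lowest, and overlap at knockout replicate 1.

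Of the 5 sensors, Zbp1 stood apart from the others by group. Zbp1, a sensor of Z-form nucleic acid that can trigger necroptosis, read 14.4, 9.93 and 8.34 CPM in knockouts and 2.92, 6.35 and 5.57 CPM in controls. Every knockout was above every control, and the log2 fold change was 1.14 ± 0.453 (SE) with 6 libraries (edgeR unadjusted p = 0.0429, adjusted p 0.560) and 1.37 ± 0.436 with 5 (edgeR unadjusted p = 0.0199, adjusted p 0.540). Ifih1, which encodes the long double-stranded RNA sensor MDA5, read 29.97, 23.96 and 22.6 CPM in knockouts and 16.3, 62.5 and 26.99 CPM in controls. Dhx58, which encodes its regulator LGP2, read 9.90, 10.9 and 7.76 CPM in knockouts and 7.68, 16.6 and 7.33 CPM in controls. Both were highest in control replicate 2 and overlapped between groups. Ddx58 (RIG-I) and Eif2ak2 (PKR) lay between 17.0 and 31.4 CPM in all 6 libraries, with log2 fold changes of 0.18 and −0.15 without control replicate 2.

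The OAS family, whose active members make oligoadenylates that switch on RNase L, had the highest median of all roles, 1.35 with 6 libraries and 1.58 with 5. Oas1a read 23.04, 20.1 and 8.46 CPM in knockouts and 3.45, 8.41 and 4.47 CPM in controls. Knockout replicates 1 and 2 were far above the controls, and knockout replicate 3 barely exceeded control replicate 2. The log2 fold change of Oas1a was 1.67 ± 0.546 (SE) with 6 libraries (edgeR unadjusted p = 0.0210, adjusted p 0.560) and 2.13 ± 0.513 with 5 (edgeR unadjusted p = 0.00600, adjusted p 0.540). Of the distinct stretches of 100 bases in its transcripts, 40.9% also occur in Oas1g, so its counts are uncertain.

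Oasl2, an OAS-like protein with a ubiquitin-like tail, read 26.7, 24.8 and 10.8 CPM in knockouts and 2.25, 8.41 and 8.76 CPM in controls. Its log2 fold change was 1.68 ± 0.632 (SE) with 6 libraries (edgeR unadjusted p = 0.0354, adjusted p 0.560) and 1.94 ± 0.700 with 5 (edgeR unadjusted p = 0.0328, adjusted p 0.540). The groups did not overlap, and control replicate 1 was far below the other controls. Oas2 read 15.00, 9.15 and 12.9 CPM in knockouts and 8.80, 3.13 and 8.54 CPM in controls, also without overlap, though knockout replicate 2 was only slightly above control replicate 1. Oasl1, a relative that lacks synthetase activity and restrains Irf7 translation, read 6.28, 9.15 and 2.37 CPM in knockouts and 1.01, 15.9 and 3.56 CPM in controls. It was highest in control replicate 2, and its log2 fold change went from −0.19 with 6 libraries to 1.41 with 5. Oas3 lay between 1.05 and 5.51 CPM, with knockout replicate 3 inside the control range.

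IFIT proteins bind viral RNA that lacks host cap marks and block its translation. Ifit1 read 13.8, 10.6 and 11.2 CPM in knockouts and 2.55, 19.1 and 10.9 CPM in controls. Ifit2 read 18.96, 18.3 and 14.8 CPM in knockouts and 6.85, 7.78 and 16.6 CPM in controls. In both genes control replicate 1 was the lowest library, and with 6 libraries the groups overlapped.

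Ifit3, which stabilises IFIT1, read 28.3, 20.8 and 24.99 CPM in knockouts and 4.01, 27.01 and 19.2 CPM in controls. Its neighbour Ifit3b read 9.22, 6.38 and 7.53 CPM in knockouts and 1.39, 5.81 and 4.44 CPM in controls. Control replicate 1 again stood well below every other library in both genes. For Ifit3b the groups did not overlap with 6 libraries, at a log2 fold change of 1.00 ± 0.591 (SE), and without control replicate 2 it was 1.42 ± 0.562 (edgeR unadjusted p = 0.0451, adjusted p 0.548). Of the 100-base stretches of Ifit3, 31.7% occur in Ifit3b, and 27.4% of those of Ifit3b occur in Ifit3, so the split of reads between the pair is uncertain. Their promoters above share the same 2 ISRE core matches.

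**Figure D4:**
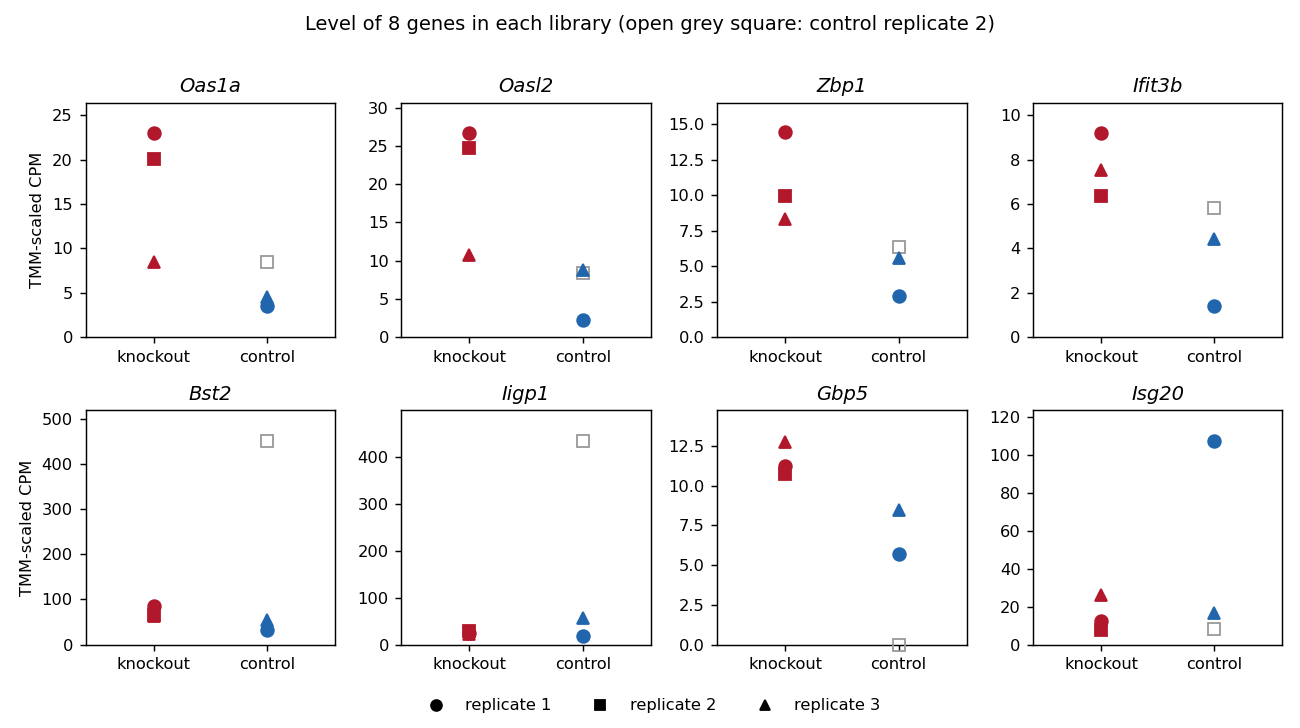
TMM-scaled CPM on y axes that start at 0 and differ between panels, for 8 members, with 1 point per library (knockouts red, controls blue, control replicate 2 an open grey square) and the replicate number as the shape. Oas1a, Oasl2, Zbp1, Ifit3b and Gbp5 had every knockout above every control, Bst2 and Iigp1 were highest in control replicate 2, and Isg20 was highest in control replicate 1.

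Isg15, a ubiquitin-like protein joined to other proteins after interferon, read 13.4, 9.58 and 9.43 CPM in knockouts and 16.9, 23.3 and 7.96 CPM in controls. Unlike most members it was high in control replicate 1, and control replicate 2 was the highest. Usp18, the protease that removes ISG15 and dampens the type I receptor, read 7.68, 5.96 and 4.35 CPM in knockouts and 3.67, 29.4 and 6.16 CPM in controls. Herc6, the mouse ligase for ISG15, read 13.7, 9.05 and 9.93 CPM in knockouts and 6.10, 20.4 and 8.69 CPM in controls, and without control replicate 2 its groups did not overlap. For Herc6, 10.3% of the 100-base stretches occur in the overlapping gene Gm45193. Trim25, a ubiquitin ligase acting with RIG-I, read 109, 93.1 and 40.01 CPM in knockouts and 41.98, 118 and 53.5 CPM in controls. Trim30a read 36.7, 31.2 and 18.1 CPM in knockouts and 11.6, 19.4 and 18.3 CPM in controls, a log2 fold change of 0.80 with 6 libraries and 0.95 with 5. Knockout replicates 1 and 2 were above all controls for Trim30a, and knockout replicate 3 lay within them.

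Parp9 and Dtx3l, partners in an ADP-ribosylation and ubiquitin ligase complex, were nearly level or highest in control replicate 2. Parp9 read 51.7, 46.9 and 45.2 CPM in knockouts and 49.7, 57.2 and 55.03 CPM in controls. Dtx3l read 32.3, 32.9 and 28.99 CPM in knockouts and 21.4, 67.5 and 45.4 CPM in controls. The exons of the pair overlap on opposite strands over 9.40% of Parp9 and 8% of Dtx3l, and the sources used here do not give the strand setting of the counting. Parp14, a mono-ADP-ribosyltransferase, read 57.8, 55.2 and 36.6 CPM in knockouts and 21.5, 34.8 and 44.1 CPM in controls, with knockout replicates 1 and 2 above every control and knockout replicate 3 inside their range.

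Of the 12 other antiviral effectors, 11 had a log2 fold change above 0 without control replicate 2 and 8 with it. Bst2, or tetherin, which holds budding virus at the cell surface, read 85.4, 65.8 and 63.8 CPM in knockouts and 31.8, 450.3 and 53.2 CPM in controls. Control replicate 2 was far above all other libraries, and the other controls lay below every knockout. The log2 fold change of Bst2 was −1.32 ± 0.997 (SE) with 6 libraries and 0.77 ± 0.306 with 5 (edgeR unadjusted p = 0.0462, adjusted p 0.551). Rtp4, a receptor transport protein with antiviral activity, read 25.3, 14.9 and 12.3 CPM in knockouts and 5.32, 36.9 and 10.5 CPM in controls. Its log2 fold change was −0.0026 with 6 libraries and 1.16 with 5, where the groups did not overlap (edgeR unadjusted p = 0.0457, adjusted p 0.550).

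Cmpk2, a mitochondrial nucleotide kinase next to Rsad2, read 22.2, 17.2 and 12.8 CPM in knockouts and 6.07, 10.8 and 13.3 CPM in controls. Xaf1, a pro-apoptotic factor, read 19.2, 12.98 and 17.3 CPM in knockouts and 10.4, 16.01 and 12.03 CPM in controls. For Xaf1 the groups separated without control replicate 2, and for Cmpk2 knockout replicate 3 lay just below control replicate 3. Mx2, an antiviral dynamin-like GTPase, read 2.52, 1.26 and 1.28 CPM in knockouts and 0.749, 4.38 and 1.43 CPM in controls. Ifi35 read 27.4, 21.4 and 36.3 CPM in knockouts and 22.2, 36.3 and 19.2 CPM in controls, and 16.8% of its exonic bases overlap Gm11626 on the opposite strand. Both were highest in control replicate 2, though for Ifi35 knockout replicate 3 was almost as high.

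Isg20, an exonuclease that degrades RNA, was the one effector below 0 in both fits, at −1.50 ± 1.02 (SE) with 6 libraries and −2.01 ± 0.838 with 5 (edgeR unadjusted p = 0.0537, adjusted p 0.562). It read 12.6, 7.61 and 26.4 CPM in knockouts and 107, 8.14 and 16.4 CPM in controls, so control replicate 1 alone was high and the other libraries overlapped. The same library had the highest sum of the 3 neutrophil markers. The sums were 112, 17.9 and 12.1 CPM in control replicates 1 to 3 and 23.7, 20.5 and 11.4 CPM in knockouts. S100a8 alone gave 100.5 CPM in control replicate 1, the only library with any count of Ly6g. Csf3r was highest in knockout replicate 2, at 11.1 CPM, against 9.36 CPM in control replicate 1. The part of neutrophils in the level of Isg20 was not tested.

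Mx1, Rsad2 (viperin), Samd9l, Ifi27 and Ifi44 overlapped between groups in both sets of libraries, with log2 fold changes of 0.082 to 0.90 without control replicate 2. Mx1 was low throughout, at 0.537 to 3.05 CPM. Per transcript length Ifi27 had rank 1 or 2 among the 51 genes in every library, at 202 to 439 FPKM (fragments per kilobase of transcript, scaled to depth by the authors), and Bst2 ranked among the top 3, at 30.5 to 467 FPKM.

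Both PYHIN genes, whose human relatives sense DNA in the nucleus and cytosol, had fold changes above 0 in both fits. Ifi203 read 34.4, 31.9 and 25.4 CPM in knockouts and 10.2, 12.4 and 22.4 CPM in controls. Its groups did not overlap, with a log2 fold change of 1.03 ± 0.376 (SE) with 6 libraries (edgeR unadjusted p = 0.0325, adjusted p 0.560) and 0.93 ± 0.385 with 5 (edgeR unadjusted p = 0.0529, adjusted p 0.560). Ifi204 read 44.6, 40.2 and 25.03 CPM in knockouts and 22.4, 11.5 and 28.5 CPM in controls, with knockout replicate 3 below control replicate 3. For Ifi204, 10.7% of the 100-base stretches occur in other genes.

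Guanylate-binding proteins coat and break open vacuoles that hold intracellular microbes. Gbp2 read 78.9, 68.04 and 78.1 CPM in knockouts and 34.1, 7.69 and 72.6 CPM in controls. Gbp5, which also promotes the NLRP3 inflammasome, read 11.3, 10.7 and 12.8 CPM in knockouts and 5.69, 0 and 8.51 CPM in controls. The counts behind Gbp5 were 345, 306 and 329 in knockouts and 152, 0 and 232 in controls. Every knockout was above every control for Gbp5, at a log2 fold change of 0.72 ± 0.303 (SE) without the library at 0 (edgeR unadjusted p = 0.0553, adjusted p 0.563). Gbp6 read 10.3, 6.24 and 5.16 CPM in knockouts and 1.27, 6.35 and 4.77 CPM in controls, but 59.0% of its 100-base stretches occur in Gm43302 and its counts are uncertain. Gbp3 read 30.6, 20.8 and 27.2 CPM in knockouts and 8.65, 33.4 and 24.7 CPM in controls. Control replicate 1 was the lowest library for Gbp3 and Gbp6, and control replicate 2 the lowest for Gbp2, Gbp5 and Gbp9. Gbp7 and Gbp9 were below 0 without control replicate 2, at −0.26 and −0.28, with control replicate 3 the highest library for both.

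The 5 immunity-related GTPases, which attack pathogen vacuoles and regulate autophagy in mice, were all highest in control replicate 2. Iigp1 read 25.2, 28.1 and 22.97 CPM in knockouts and 18.9, 434 and 56.5 CPM in controls. Control replicate 2 stood 17.2-fold above the median of the other libraries, and control replicate 3, the library next highest in hepatocyte markers, was above every knockout. Whether hepatocytes contributed to these levels was not tested. The log2 fold change of Iigp1 was −2.74 ± 1.12 (SE) with 6 libraries (edgeR unadjusted p = 0.0477, adjusted p 0.560) and −0.55 ± 0.451 with 5 (edgeR unadjusted p = 0.270). Irgm1, a regulatory GTPase of the family, read 23.4, 25.8 and 20.7 CPM in knockouts and 18.01, 80.7 and 25.3 CPM in controls. Irgm2, another regulator, read 27.6, 26.4 and 20.6 CPM in knockouts and 9.77, 44.9 and 26.7 CPM in controls. In both regulators control replicate 1 was the lowest library. Igtp, or IRGM3, read 17.00, 19.5 and 13.7 CPM in knockouts and 9.32, 30.8 and 15.6 CPM in controls. Ifi47 read 15.4, 15.9 and 10.4 CPM in knockouts and 15.3, 37.7 and 10.4 CPM in controls. Without control replicate 2 the knockout and control values of all 5 overlapped.

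Control replicate 2 was the highest of the 6 libraries for 23 of 51 members (31.2% of all genes) and the lowest for 8 (41.1% of all genes). The TMM factor of this library was 0.559, against 0.982 to 1.25 in the others, and scaling raises its values. Scaled by total counts alone it was the highest for 6 members (12.7% of all genes), Stat2, Usp18, Bst2, Irgm1, Iigp1 and Ifi47, and the lowest for 20 (65.8% of all genes). On the TMM scale it exceeded the median of the other libraries 7.06-fold for Bst2, 4.93-fold for Usp18, 4.48-fold for Oasl1 and 3.44-fold for Irgm1, while Gbp2 stood at 0.11 of that median and Gbp9 at 0.20. In the same library the macrophage markers were the lowest of all, at 207 CPM, and the endothelial markers summed to 94.6 CPM against 470 to 656 CPM elsewhere. The part of its liver profile in these levels was not tested.

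Leaving that library out changed the sign of the log2 fold change for 17 members. In 16 it went from below to above 0, and in Gbp9 from above to below. Of the 17, 15 were highest in control replicate 2.

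**Figure D5:**
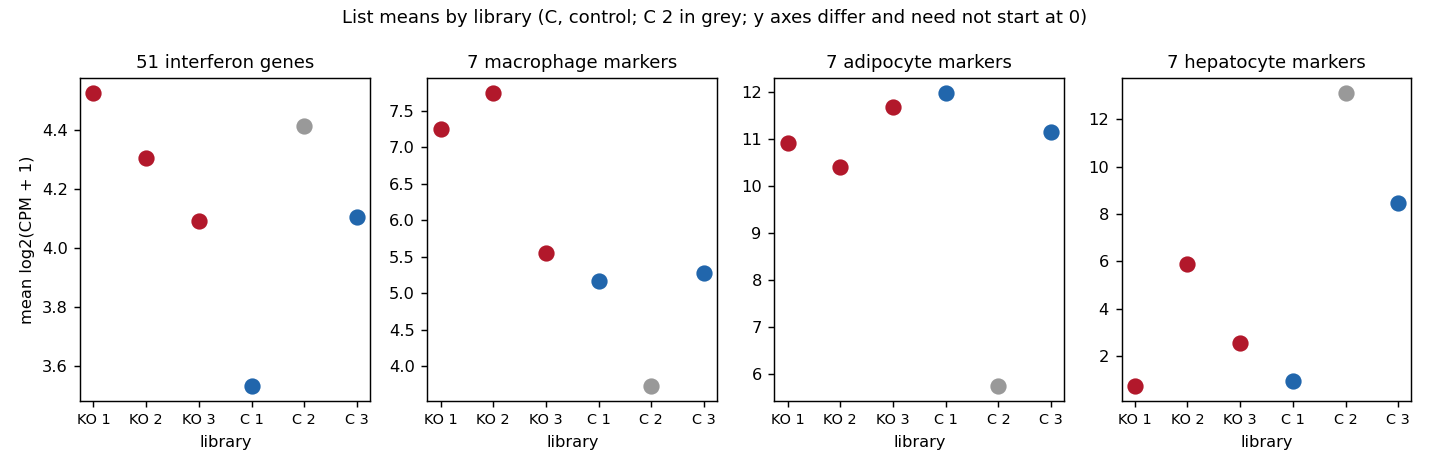
Mean log2(CPM + 1) of the 51 members, 7 macrophage, 7 adipocyte and 7 hepatocyte markers in each library, 1 point per library (knockouts red, controls blue, control replicate 2 grey), on y axes that differ and need not start at 0. The macrophage markers were highest in knockout replicates 1 and 2, and control replicate 2 was the lowest library for adipocyte and macrophage markers and the highest for hepatocyte markers.

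The rest of the interferon pathway was examined through 42 genes that are not among the 51: ligands, receptors, kinases, induction factors, sensors, feedback inhibitors and induced chemokines and coactivators. Of these, 32 were expressed enough to be tested, and none passed by edgeR in either set. Their median log2 fold change was 0.34 with 6 libraries, with 23 of 32 above 0 (48.0% of all genes), and 0.48 with 5, with 28 of 32 above 0 (47.1% of all genes). Every knockout was above every control for 7 with 6 libraries (9.54% of all genes) and 10 with 5 (13.6%), and every knockout below for none (5.61% and 11.9%). At an unadjusted p under 0.05 edgeR listed 5 with 6 libraries and 6 with 5, all higher in knockouts (4.38% and 5.46% of all genes) and none lower (4.27% and 3.5%).

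The ligands were near or at 0. Ifnb1 had no counts in any library, nor had Ifna4, Ifna5, Ifne, Ifnl2 and Ifnl3. Ifng was counted 3, 4 and 5 times in the knockouts and 0 times in each control, too few to test, and Ifnk had 3 counts in knockout replicate 2 alone. At this depth the transcripts of these interferons were barely detected or not detected.

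Irf8 and Irf5, transcription factors of macrophages and dendritic cells, were the pathway genes with the smallest p. Irf8 read 65.04, 78.5 and 21.5 CPM in knockouts and 11.9, 9.12 and 14.8 CPM in controls, with edgeR log2 fold changes of 2.20 ± 0.530 (SE) and 2.06 ± 0.592. Irf5 read 55.99, 88.6 and 23.9 CPM in knockouts and 15.2, 16.01 and 13.9 CPM in controls, with 1.90 ± 0.494 (SE) and 1.97 ± 0.581. Both had every knockout above every control and both passed DESeq2, Irf8 at adjusted p 0.0167 and 0.0243 and Irf5 at 0.0374 and 0.0310 with 6 and 5 libraries. With 5 libraries DESeq2 kept Irf8 without knockout replicate 3 or control replicate 3 and Irf5 without knockout replicate 3, and lost each without any of the others.

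Ptpn6, the phosphatase SHP-1 of blood cells, read 39.2, 58.6 and 11.3 CPM in knockouts and 5.47, 26.2 and 7.92 CPM in controls, and passed DESeq2 with 5 libraries at adjusted p 0.0193, lost without knockout replicate 1, knockout replicate 2 or control replicate 1. Il10rb, a receptor chain shared by interferon lambda and interleukin 10, read 63.1, 79.5 and 37.8 CPM in knockouts and 24.9, 10.1 and 27.5 CPM in controls. Ciita, the coactivator of MHC class II genes, read 14.4, 19.96 and 5.05 CPM in knockouts and 0.487, 0.447 and 3.81 CPM in controls. In these 5 genes knockout replicates 1 and 2 were the highest libraries, as in the sum of the macrophage markers, and knockout replicate 3 stood nearer the controls. For Ptpn6 control replicate 2 was above knockout replicate 3, whereas control replicate 2 had the lowest macrophage marker sum. The part of macrophages in these values was not tested.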

How the data were processed

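Reads were made into values by the submitters, whose processing notes name fastp, HISAT2 2.0.5, StringTie 1.3.3b, featureCounts 1.5.0-p3 and the mouse build mm10. The authors deposited raw counts per gene and FPKM values. A reference list of gene names paired 54409 of the 54532 identifiers with a symbol. From the counts, edgeR 4.0.16 in R 4.3.3 (TMM, filterByExpr, quasi-likelihood F test, Benjamini-Hochberg over all genes, threshold 0.05) compared knockout with control over all 6 libraries and over 5. DESeq2 1.42.0, limma 3.58.1 (voom, and limma on log2(FPKM + 1) and log2(FPKM + 0.1)), other size factors, no filter, a title number term and leaving out each library were alternatives. The scripts were checked on simulated data. The members and gene lists were chosen with earlier results of these data known.

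Per-library values are printed for members with a mean of at least 1 CPM that did not overlap between groups in either set, had 1 of the 2 smallest edgeR p of their role in either fit, were called by any tool, or were highest in control replicate 2. These are 41 genes, and the other 10 are given by range and count. Of the pathway list the 4 genes of smallest p in either fit are given, with Ifnb1 and Ifng as counts; other values were chosen after they were seen. Replicates differed by more than sampling noise (chi-square per degree of freedom 62.4 to 1235).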

Additional observations from a re-analysis of the deposited data

How the results depend on the processing

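No paired analysis was possible because the labels carry no replicate numbers, and the titles share none between groups. With edgeR, 0 members and 0 pathway genes passed under other size factors, no filter, the title number term and each left-out library, and limma-voom and limma on FPKM gave 0 as well. In the main edgeR and limma-voom fits 0.0% of all genes passed too. DESeq2 called 2 pathway genes with 6 libraries (3.3% of all genes), and 1 member and 3 pathway genes with 5 (2.81% of all genes). Leaving out 1 of those 5 libraries, chosen after seeing the data, DESeq2 called 0 to 16 members and 0 to 7 pathway genes. These were 16 and 4 without control replicate 3, where 6.08% of all genes were called, 7 and 7 without knockout replicate 3 (8.8%), and 0 and 0 without each of the others (0.447% to 1.17%). The members' median log2 fold change with 6 libraries ranged from −0.084 without control replicate 1 and −0.026 without knockout replicate 1 to 0.52 without control replicate 2. With 5 libraries it ranged from 0.28 without control replicate 1 to 0.85 without control replicate 3 by edgeR, and from 0.27 to 0.85 by DESeq2. Where 1 control remained, it was assumed to vary like the other libraries. Within the titles beginning with 90, also chosen after seeing the data, it was −0.031. Over the 46 named genes, 45 of 598 alternative values with 6 libraries had the opposite sign, in 20 genes, and 22 of 782 with 5, in 8 genes. The cause was not tested. Genes of a few counts, such as the interferon ligands, were limited by depth.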
